A study of Mus musculus with 8 samples.

Results

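The genes described here are 10 components of cytokine signalling in T cells: the transcription factors Stat3, Stat4, Stat5a, Stat5b and Stat6, the feedback inhibitors Socs1, Socs2, Socs3 and Cish, and Il12rb1, a receptor chain. They were chosen by symbol from the 13073 genes that the tables list in all. The tables list 9 of them in vitro, where Socs2 has no row, and all 10 in vivo. RNA from mouse thymocytes was sequenced in 4 groups of 2 libraries. All mice carried loxP-flanked Bcl6 alleles (Bcl6fl/fl); those labelled WT carried no Cre, and those labelled KO also carried Cd4cre, in which regulatory sequences of Cd4 drive the recombinase from the double-positive stage of T cell development. Bcl6 encodes a zinc-finger repressor of transcription. In vitro, double-positive cells (CD4+CD8+) were stimulated with antibodies to CD3 and CD28 at 8 µg/ml for 24 h, and the cells that had lost both coreceptors (double-negative) were sorted. In vivo, double-negative cells bearing CD5 and TCRβ, the agonist-selected precursors, were sorted straight from the thymus. No age, sex or number of animals per library is stated in the labels, and p-values therefore reflect the spread among these libraries alone, which may be technical.

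Cytokine receptors carry Janus kinases (JAKs), which phosphorylate STAT proteins when a cytokine binds. The STATs then enter the nucleus and switch on target genes, among them the SOCS family and CISH, which bind receptors or JAKs and damp the signal. In developing T cells interleukin-7 and interleukin-2 act mainly through STAT5, interleukin-6 and interleukin-23 through STAT3, interleukin-4 through STAT6 and interleukin-12 through STAT4. BCL6 and STAT proteins recognise DNA motifs that resemble each other.

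Total counts ranged from 14754440 to 23975636 per library. The mitochondrial share of counts was lower in both KO-labelled libraries of each system, at 2.06% and 1.83% (label WT) against 1.69% and 1.49% (label KO) in vitro and 2.08% and 2.24% against 1.89% and 1.94% in vivo, and its part in the results was not tested. The targeted gene did not check the labels: Bcl6 stood at an FPKM (fragments counted per length of gene and per sequencing depth, the authors' unit) of 24.9 and 21.9 (label WT) against 64.6 and 61.0 (label KO) in vitro, higher where it should be deleted, and at 11.5 and 13.9 against 8.81 and 14.4 in vivo. The tables pool all exons of a gene, so a loss of some exons would not show. Groups are therefore named by their labels, and every fold change is that of the libraries labelled KO over those labelled WT. T cell markers with a row (8 of 11 listed) summed to an FPKM of 1178 to 1416 over the in vivo libraries and 1186 to 1391 in vitro. Among other markers in vivo, the myeloid list (5 of 6 with a row, none at 0, Cd14 without one) summed to 31.9 and 13.3 (label WT) against 122 and 19.3 (label KO). The coreceptor genes Cd4, Cd8a and Cd8b1 summed to 32.5 and 62.3 against 31.8 and 96.8, higher in replicate 2 of both groups.

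Promoter sequences from RefSeq on build GRCm38.p6 (mm10) were matched for 8 of the 10 genes, 11 promoters in all. Those of Il12rb1 and Socs2 were not analysed here. The 250 bases before each start were searched on both strands for TTCNNNGAA (STAT type), TTC and GAA 4 bases apart (STAT6 type) and TTCCTAGAA (BCL6 type, which also holds the STAT type). Of these 11, only the Socs3 promoter held a match, of the STAT type, beginning 154 bases before the start. The windows of Cish and Stat5a lie inside the spans of their genes in GENCODE M21, so sequence before those spans was not searched. Over all 32851 RefSeq promoters, 7.02% held the STAT type, 5.85% the STAT6 type and 0.347% the BCL6 type. The Socs3 window is shown because Socs3 is the feedback gene with the largest in vivo difference and the lone match. It lies at chr11:117969367-117969616 on the minus strand, inside the span of the Socs3 gene in GENCODE M21 and upstream of its coding transcript. Capitals mark the match.

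Socs3 promoter: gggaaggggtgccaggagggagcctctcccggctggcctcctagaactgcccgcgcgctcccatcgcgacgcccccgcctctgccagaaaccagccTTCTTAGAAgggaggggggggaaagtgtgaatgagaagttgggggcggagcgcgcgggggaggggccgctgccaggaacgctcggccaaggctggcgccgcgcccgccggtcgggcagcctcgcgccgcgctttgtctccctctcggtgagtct

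Stat5a and Stat5b lie side by side on chromosome 11 and are near copies, which bears on how their reads can be told apart. Their coding sequences were identical at 2081 of 2294 aligned bases (90.7%), with a longest shared run of 324 bases, at coding bases 571 to 894 of each. Of the 50-base windows along the Stat5a coding sequence, 25.9% also occur in Stat5b. Along the longest coding transcript of each gene, untranslated parts included, the shared windows were 15.8% for Stat5a and 11.8% for Stat5b. The first 90 coding bases of each (GENCODE M21 transcripts Stat5a-203 and Stat5b-201) are shown with the 16 differing bases in capitals.

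Stat5a: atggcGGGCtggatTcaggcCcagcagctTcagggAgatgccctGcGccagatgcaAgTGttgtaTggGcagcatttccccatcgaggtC
Stat5b: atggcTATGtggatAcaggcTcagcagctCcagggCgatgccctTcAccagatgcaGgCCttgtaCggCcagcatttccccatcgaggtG

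**Figure D1:**
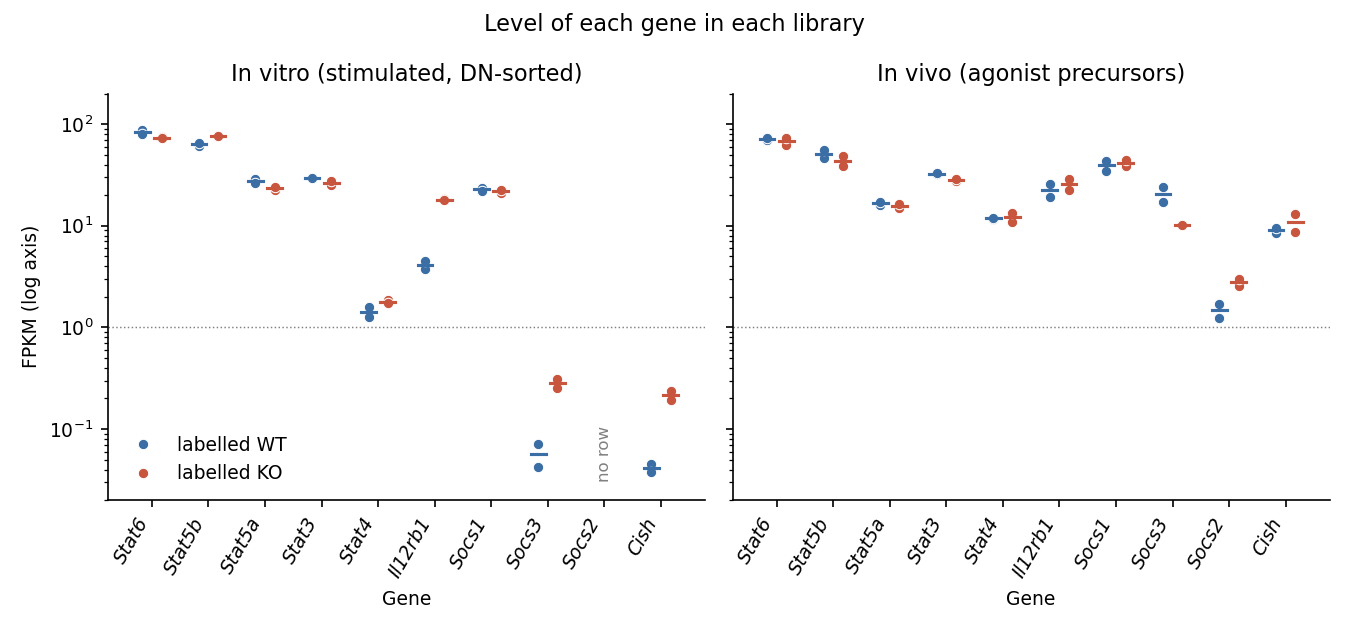
FPKM of each of the 10 genes (log axis) in each library, in vitro at left and in vivo at right. Points are libraries, bars are means of 2, colours give the label, and the dotted line is the minimum of 1 used for testing. In vitro Cish and Socs3 lie below 0.4 in all 4 libraries, and Il12rb1 at about 4 (label WT) and 18 (label KO).

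Stat6 and Stat5b had the 2 highest mean levels of the 10 genes in all 4 groups, and Stat4 the lowest among the STAT genes. In the in vitro libraries labelled WT, the order by mean FPKM was Stat6 (84.2 ± 4.80, SD, n = 2), Stat5b (63.4 ± 2.84), Stat3 (29.5 ± 0.0785), Stat5a (27.5 ± 1.38), Socs1 (22.8 ± 0.871), Il12rb1 (4.11 ± 0.490), Stat4 (1.43 ± 0.239), Socs3 (0.0572 ± 0.0210) and Cish (0.0418 ± 0.00515). Only Socs3 and Cish, the last pair, overlapped in range. In the libraries labelled KO the order differed at its top, with Stat5b (76.6) above Stat6 (73.7). There Stat5a and Socs1 overlapped. In vivo under the WT label the order was Stat6 (71.5 ± 2.60), Stat5b (50.6 ± 6.69), Socs1 (39.3 ± 6.36), Stat3 (32.5 ± 0.270), Il12rb1 (22.5 ± 4.58), Socs3 (20.6 ± 4.69), Stat5a (16.6 ± 0.745), Stat4 (11.8 ± 0.117), Cish (9.003 ± 0.673) and Socs2 (1.47 ± 0.330), and only Il12rb1 and Socs3 overlapped as neighbours. Under the KO label in vivo, Socs3 stood ninth at 10.2, within the range of Cish (10.96), which overlapped Stat4 (12.1). Stat5b and Socs1 also overlapped there, as did Stat3 and Il12rb1. The systems were sequenced by different providers, so a difference in level between them cannot be told apart from the provider and was not tested.

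Il12rb1 encodes the β1 chain shared by the receptors for interleukin-12 and interleukin-23 (chromosome 8, 70808449 to 70821424, plus strand). In vitro it stood at an FPKM of 3.76 and 4.46 (label WT) against 18.2 and 17.8 (label KO). Both KO-labelled libraries lay far above both WT-labelled ones, and the means differed 4.38-fold. The log2 fold change was 2.16 (SE 0.11, n = 2 per group; quasi-likelihood test of edgeR, adjusted p = 7.55e-07 after Benjamini and Hochberg). In vivo the FPKM was 25.8 and 19.3 (label WT) against 28.5 and 22.6 (label KO), so the groups overlapped. Here the log2 fold change was 0.17 (SE 0.17, 95% interval -0.25 to 0.60; edgeR adjusted p = 0.767). The in vivo less the in vitro log2 fold change was -1.96 (SE 0.23; edgeR over all 8 libraries, adjusted p = 0.000783). Of the 7 genes in this test Il12rb1 alone passed, where 16.4% of all 9364 genes did, 6.57% upward and 9.81% downward. The in vitro call and that of the difference were both kept under every alternative run (16 and 13 of them).

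Sums of other cell types' markers were also compared in vitro. Of the dendritic cell list Xcr1 alone has a row, at a summed FPKM of 0.0275 to 0.0842 under the WT label and 0.238 to 0.671 under the KO label. In the NK or innate-like list Zbtb16 alone has a row, at 0.331 and 0.394 against 0.9496 and 1.03. The B cell list (2 of 6 with a row) summed to 2.95 and 2.85 against 5.06 and 5.76, and the stroma list (3 of 6) to 15.6 and 17.4 against 29.7 and 28.3. The coreceptor genes, whose loss defined the sort, summed to 21.7 and 26.0 against 31.2 and 28.1. Sox13, the lone gamma delta marker with a row, stood at 0.155 and 0.142 against 0.196 and 0.331, and the regulatory T cell list (3 of 3) summed to 8.95 and 10.3 against 10.5 and 10.4. All 7 of these values were higher in both KO-labelled libraries, while the T cell, myeloid and erythroid sums overlapped. Their part in the result was not tested. In these bulk samples fewer cells of a type and less RNA per cell cannot be told apart.

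**Figure D2:**
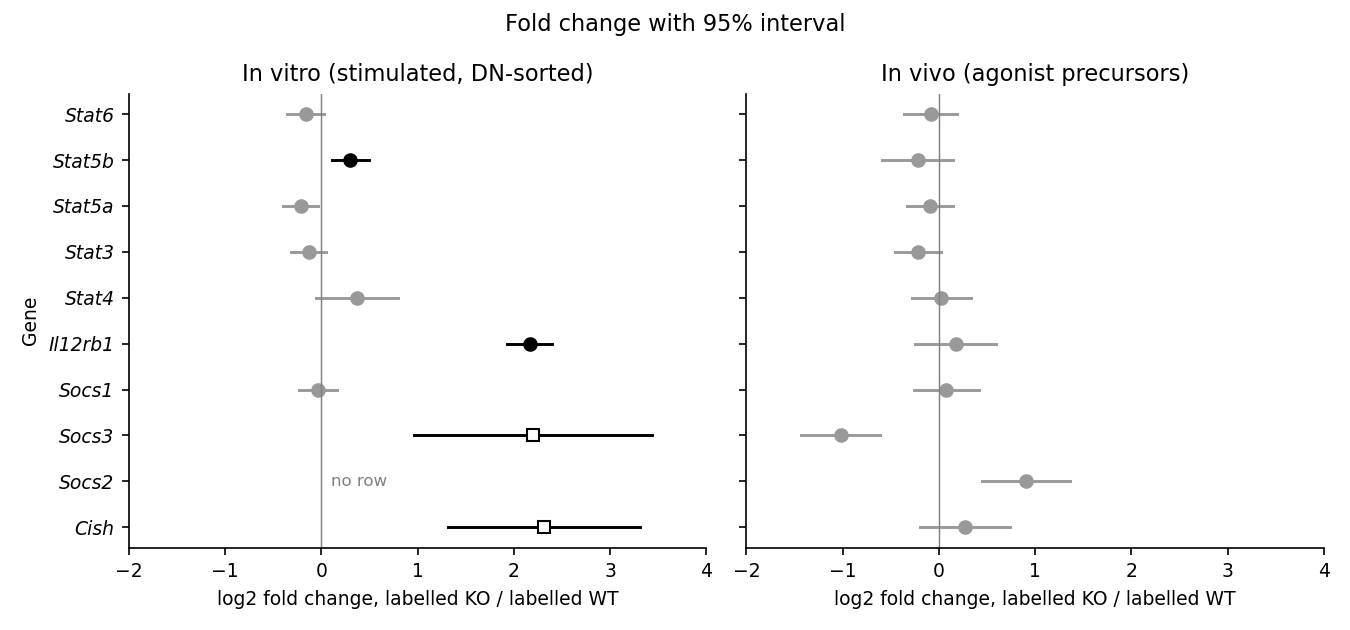
Log2 fold change of each gene, libraries labelled KO over those labelled WT, with its 95% interval, in vitro at left and in vivo at right. Black marks passed the adjusted p of 0.05, grey did not, and open squares come from the fit without the expression filter. Il12rb1 and Stat5b passed in vitro with the filter and Cish and Socs3 without it, and no gene passed in vivo.

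In vitro 7 of the 10 genes passed the expression filter (an FPKM of 1 or more in 2 or more libraries), and 2 of these rose, Il12rb1 and Stat5b, while none fell. That is near the background, since 37.8% of all 9658 genes tested passed, 20.1% upward and 17.7% downward. By limma on rescaled TPM values 1924 rose and 1116 fell, against 1940 and 1709 here. The groups did not overlap at 6 of the 7, where 71.1% of all genes tested did not overlap.

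Stat5b and Stat5a, which bind DNA as dimers downstream of interleukin-7 and interleukin-2, differed in opposite directions in vitro. The FPKM of Stat5b (chromosome 11, 100780731 to 100850724, minus strand) was 61.3 and 65.4 (label WT) against 76.5 and 76.7 (label KO). The groups did not overlap, and Stat5b rose by 0.30 on the log2 scale (SE 0.09; edgeR adjusted p = 0.0188). Fits that lost the call included those without WT replicate 1 (0.135), KO replicate 1 (0.0678) or KO replicate 2 (0.0542) and the fit of all 8 libraries (0.0817), within a range of 0.000275 to 0.135 over the 16 alternatives that kept the genes apart. Stat5a (chromosome 11, 100859351 to 100885169, plus strand) stood at 28.5 and 26.6 (label WT) against 22.3 and 24.3 (label KO). These groups did not overlap either, but its log2 fold change of -0.22 (SE 0.08, 95% interval -0.40 to -0.03) missed the threshold (edgeR adjusted p = 0.0637). It passed without the filter (0.0475), with upper quartile scaling (0.0486) and without KO replicate 2 (0.0431), within 0.00251 to 0.324 over all alternatives. The low ends of both ranges (0.000275 and 0.00251) came from an edgeR fit with crossed replicate numbers as a block, chosen after seeing the data. When the counts of both genes were summed, the log2 fold change was 0.14 (edgeR adjusted p = 0.264).

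The ratio of Stat5b to Stat5a needs no scaling between libraries. In vitro it was 2.15 and 2.46 (label WT) against 3.44 and 3.15 (label KO), so the KO-labelled libraries held more Stat5b per Stat5a. In vivo it was 2.85 and 3.23 against 2.61 and 2.93, and the groups overlapped. How the counting divided reads that match both genes is not stated in these sources, so the size of each ratio is uncertain.

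**Figure D3:**
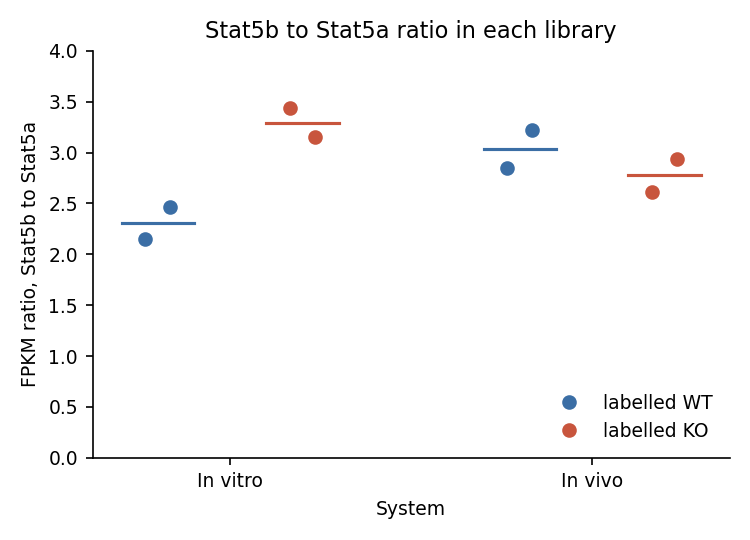
Ratio of Stat5b to Stat5a FPKM in each library (linear axis from 0), by system and label; bars are means of 2. In vitro both libraries labelled KO (3.44 and 3.15) lie above both labelled WT (2.15 and 2.46), while in vivo the labels overlap.

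In vivo Stat5b stood at 45.9 and 55.3 (label WT) against 38.8 and 48.5 (label KO; log2 fold change -0.22, SE 0.15; edgeR adjusted p = 0.627). Stat5a stood at 16.1 and 17.2 against 14.8 and 16.5 (-0.09, SE 0.10; edgeR adjusted p = 0.792). Both overlapped between labels. The difference in Stat5b response between systems, -0.49 (SE 0.17, in vivo less in vitro), missed the threshold (edgeR adjusted p = 0.0697). Fits in which it passed included DESeq2 (0.0359) and those without in vivo WT replicate 1 (0.0275) or in vivo KO replicate 2 (0.0307), within 0.0275 to 0.239 over 13 alternatives.

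Stat3, the mediator of interleukin-6 and interleukin-23 signals (chromosome 11, 100885098 to 100939540, minus strand), was lower under the KO label in each system without passing. Its FPKM was 29.5 and 29.6 against 25.3 and 27.6 in vitro and 32.3 and 32.7 against 27.3 and 29.0 in vivo. Neither pair of groups overlapped. The log2 fold changes were -0.13 (SE 0.08, 95% interval -0.32 to 0.05; edgeR adjusted p = 0.233) and -0.22 (SE 0.10, -0.45 to 0.02; edgeR adjusted p = 0.402). The ends of Stat3 and Stat5a overlap by 72 bases on opposite strands, and the strand setting of the counting is not stated in these sources.

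Stat6 carries interleukin-4 signals and was the most abundant of the STAT genes in 3 of the 4 groups (chromosome 10, 127642986 to 127660957, plus strand). Its FPKM was 87.6 and 80.8 (label WT) against 75.0 and 72.4 (label KO) in vitro, without overlap (log2 fold change -0.17, SE 0.09; edgeR adjusted p = 0.157). In vivo it was 69.7 and 73.3 against 62.7 and 72.7, and the groups overlapped (-0.09, SE 0.11; edgeR adjusted p = 0.836).

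Stat4, which carries interleukin-12 signals (chromosome 1, 51987148 to 52107189, plus strand), was the least abundant STAT here. In vitro its FPKM was 1.26 and 1.60 (label WT) against 1.85 and 1.74 (label KO), on counts of 117, 101, 127 and 146. The groups did not overlap, and the log2 fold change of 0.37 (SE 0.19, 95% interval -0.06 to 0.79) did not pass (edgeR adjusted p = 0.158). In vivo the 4 libraries stood at 11.7 and 11.9 against 10.9 and 13.2, and the KO-labelled pair enclosed the other (0.02, SE 0.13; edgeR adjusted p = 0.974).

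Among the feedback inhibitors, Socs1, which blocks JAK activity (chromosome 16, 10782240 to 10785536, minus strand), had overlapping values under both labels. In vitro its FPKM was 23.4 and 22.2 (label WT) against 21.1 and 22.7 (label KO). In vivo it was 43.8 and 34.8 against 38.6 and 44.8. Groups overlapped in both systems, with log2 fold changes of -0.04 (SE 0.09, 95% interval -0.23 to 0.16; edgeR adjusted p = 0.780) and 0.08 (SE 0.14, -0.26 to 0.41; edgeR adjusted p = 0.897). The in vitro sign turned with TPM scaling (0.023) and without WT replicate 1 or KO replicate 1, and the in vivo sign without WT replicate 2 (-0.072) or KO replicate 2 (-0.018).

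Socs3, an inhibitor of receptors that use the gp130 chain (chromosome 11, 117966079 to 117970047, minus strand), was near the detection limit in vitro. It had counts of 5 and 2 (label WT) against 16 and 16 (label KO). That is a ratio of 4.68 with a 95% exact binomial interval of 2.03 to 12.6, which covers counting error only. Both KO-labelled libraries were higher, but the gene did not reach the expression filter. Listed genes had a mean count of 5 or more over their system, which Socs3 reached through the KO-labelled libraries, where it was higher. Without the filter it rose by 2.20 on the log2 scale (SE 0.58; edgeR adjusted p = 0.00957, where 34.0% of 12133 genes passed).

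In vivo the direction was the opposite. The FPKM of Socs3 was 23.9 and 17.3 (label WT) against 10.2 and 10.2 (label KO). Both WT-labelled libraries lay above both KO-labelled ones, and the mean under the WT label was 2.02-fold higher. The log2 fold change of -1.02 (SE 0.17, 95% interval -1.43 to -0.61) missed the threshold (edgeR adjusted p = 0.0588). Fits in which it passed included a robust edgeR fit (0.0494), all 8 libraries in the fit (0.00675) and DESeq2 (5.63e-05). Over 15 alternatives the adjusted p ran from 5.63e-05 to 0.171, the last without KO replicate 1, and the fold change from -1.23 to -0.76. The myeloid and coreceptor sums given above overlapped between labels. The T cell sum did not overlap, at 1274 and 1178 against 1276 and 1416. The B cell list (6 of 6 with a row, none at 0), at 14.0 and 4.37 against 25.8 and 18.3, and the stroma list (4 of 6), at 22.0 and 26.5 against 20.3 and 20.5, did not overlap either. The same held for the gamma delta marker Sox13. Their part in the Socs3 result was not tested. The difference between systems was -3.18 on the log2 scale (SE 0.54; edgeR without the filter, adjusted p = 0.00498, where 13.5% of 11725 genes passed).

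Cish, a STAT5-induced inhibitor that acts at interleukin-2 and T cell receptors (chromosome 9, 107296026 to 107302784, plus strand), was also near the limit in vitro. Its counts were 7 and 4 (label WT) against 27 and 27 (label KO). The ratio was 5.03 (95% exact binomial interval 2.60 to 10.7, counting error only). Without the filter, which the gene did not reach, it rose by 2.31 on the log2 scale (SE 0.46; edgeR adjusted p = 0.0018). Its in vivo FPKM was 8.53 and 9.48 (label WT) against 8.76 and 13.2 (label KO). The groups overlapped, with the highest value in KO replicate 2, and the log2 fold change was 0.28 (SE 0.19, 95% interval -0.19 to 0.74; edgeR adjusted p = 0.646). Without KO replicate 2 it was -0.034. The difference between systems was -1.998 (SE 0.51; edgeR without the filter, adjusted p = 0.0284).

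Socs2, best known as the inhibitor of growth hormone signalling (chromosome 10, 95385362 to 95417180, minus strand), is listed in vivo only. Its counts were 272 and 190 (label WT) against 369 and 458 (label KO), at an FPKM of 1.71 and 1.24 against 2.54 and 3.002. The KO-labelled libraries were both higher, by 1.88-fold in the means. The log2 fold change of 0.90 (SE 0.19, 95% interval 0.45 to 1.36) did not pass (edgeR adjusted p = 0.104). Fits in which it passed included DESeq2 (0.00851), and the adjusted p ran from 0.00407 to 0.251 over 13 alternatives. Sox13, the lone gamma delta T cell marker with a row, stood at an FPKM of 21.0 and 15.4 (label WT) against 48.4 and 31.4 (label KO). The part of Sox13, and of the T cell, B cell and stroma lists, in the Socs2 result was not tested.

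In vivo 0 of the 10 genes passed by edgeR's quasi-likelihood test, where 1.10% of all 10227 genes tested did (0.284% upward and 0.821% downward). At an unadjusted p under 0.05 there were 2, Socs3 and Socs2, against 14.1% of all genes. DESeq2 called the same 2, against 4.94% of all genes. Without the filter the count was again 0, where 0.940% of all genes passed. The groups did not overlap at 3 of the 10 (Socs2, Socs3 and Stat3), against 43.4% of all genes tested.

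Upstream of the STATs, receptor chains changed in both directions in vitro. Of 23 listed chains 16 were tested, and 7 rose and 3 fell, where 20.1% of all genes tested rose and 17.7% fell. Their median log2 fold change was 0.13 (0.00 over all genes tested). Il10ra, the interleukin-10 receptor chain, rose by 2.27 (SE 0.19), Il7r, the interleukin-7 receptor, by 1.93 (SE 0.18), Ifngr2 of the interferon-γ receptor by 1.49 (SE 0.15) and Il2rb, shared by interleukin-2 and interleukin-15, by 0.91 (SE 0.08). Il2ra, the high-affinity interleukin-2 chain, fell by 1.98 (SE 0.14), Il21r by 0.84 (SE 0.11) and Il6st, which encodes gp130, by 0.51 (SE 0.09; edgeR adjusted p = 0.0015). Of the 4 JAK kinases Jak3 (0.44, SE 0.10) and Jak1 (0.40, SE 0.10) rose, while Tyk2 (0.21, SE 0.08) and Jak2 (0.00, SE 0.09) did not pass.

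Il12rb2, the partner of Il12rb1 in the interleukin-12 receptor, had counts of 12 and 7 (label WT) against 18 and 14 (label KO) in vitro, below the filter. Of the chains of the interleukin-12 and interleukin-23 receptors only Il12rb1 was thus tested there, since Il23r has no row in vitro. In vivo Il12rb2 stood at an FPKM of 16.8 and 14.7 against 23.2 and 21.2 (log2 fold change 0.49, SE 0.11; edgeR adjusted p = 0.122). Il23r stood at 14.2 and 11.1 against 2.53 and 1.10 and fell by 2.81 (SE 0.36; edgeR adjusted p = 0.0388). So the chain particular to the interleukin-23 receptor fell in vivo, while for the shared Il12rb1 the groups overlapped.

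**Figure D4:**
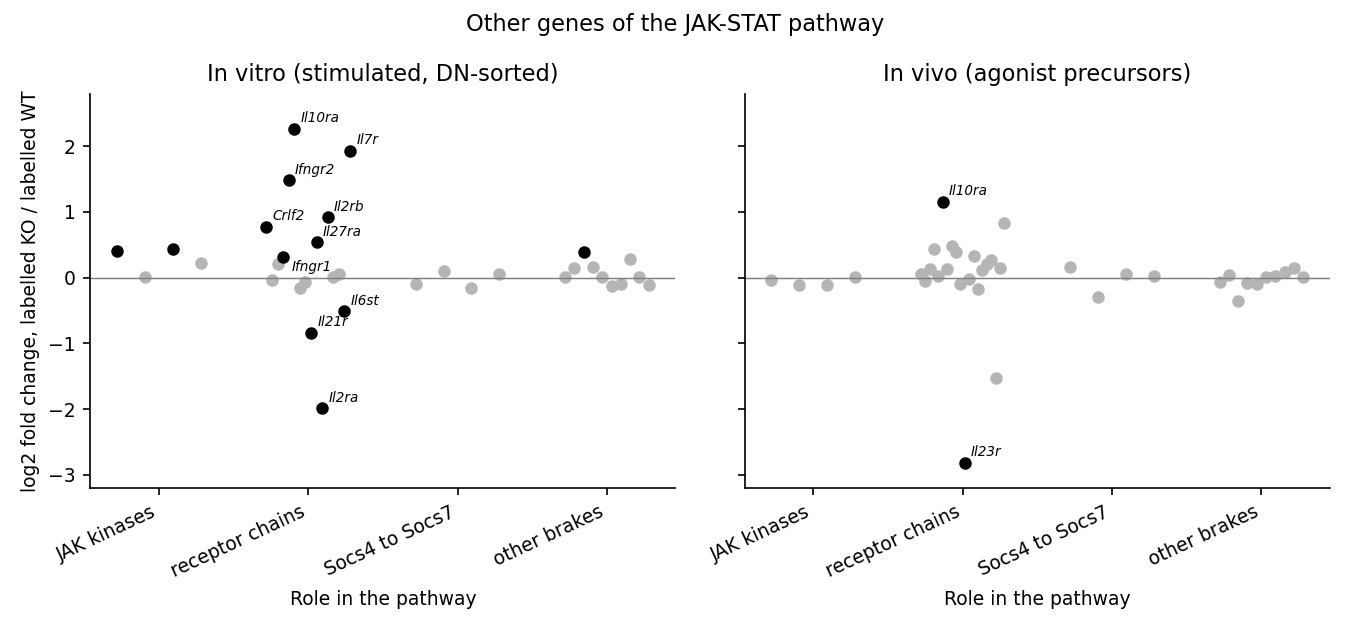
Log2 fold change (libraries labelled KO over those labelled WT) of tested JAK kinases, receptor chains, other SOCS genes and other brakes, by role, in vitro at left and in vivo at right. Each point is a gene, black where the adjusted p was under 0.05. In vitro 7 receptor chains rose and 3 fell, and in vivo Il10ra rose and Il23r fell.

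In vivo 20 receptor chains were tested, and Il10ra rose (1.16, SE 0.15; edgeR adjusted p = 0.0388) while Il23r fell (median over the list 0.14, against 0.00 over all genes). Il6st stood at an FPKM of 35.7 and 60.002 (label WT) against 14.3 and 19.2 (label KO), without overlap (-1.53, SE 0.27; edgeR adjusted p = 0.068). Of all genes tested in vivo, 1.10% passed (0.284% upward and 0.821% downward). None of the 4 JAK kinases, Socs4 to Socs7 or the 10 other brakes passed in vivo. In vitro, none of Socs4 to Socs7 passed (-0.15 to 0.10), and Pias3, a STAT3 inhibitor, was the 1 of 10 other brakes to pass (0.39, SE 0.11). There 37.8% of all genes tested passed. The phosphatase Ptpn6 (0.28, SE 0.11; edgeR adjusted p = 0.0565) did not pass.

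Genes known as STAT targets are read in vitro against the 20.1% of all genes that rose and the 17.7% that fell. Of 9 tested STAT5 targets 4 rose and 2 fell (median 0.18): Ccnd2, a G1 cyclin, rose by 2.26 (SE 0.14), the survival factor Bcl2 by 0.96 (SE 0.10) and the kinase Pim2 by 0.69 (SE 0.11), as did the cytokine Osm (1.32, SE 0.23), while Il2ra fell and Myc fell by 0.53 (SE 0.10). Of 4 tested STAT3 targets 1 rose, Bcl3 (1.08, SE 0.26), and 1 fell, Junb (-0.58, SE 0.10), while Batf (0.38, SE 0.18) did not pass. Of 2 tested STAT6 targets Gata3, a lineage factor, rose by 1.66 (SE 0.10) and Il4ra (0.06, SE 0.10) did not pass. Of 2 tested interleukin-12 and STAT4 targets Il18r1 rose by 1.80 (SE 0.27), and Furin (0.24, SE 0.09; edgeR adjusted p = 0.0572) did not pass. Cytokine genes themselves were mostly without a row in vitro (5 of 18 listed), and Osm alone was tested. Osm, Bcl3 and Il18r1 reached the expression filter through the KO-labelled libraries, where they stood higher, so the filter favoured a rise.

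In vivo none of these target genes passed, out of 10, 6, 4 and 5 tested for STAT5, STAT3, STAT6 and STAT4. The share over all genes tested in vivo was 1.10%. Nearest were Gata3, at an FPKM of 41.3 and 43.3 against 63.9 and 62.9 (0.58, SE 0.10; edgeR adjusted p = 0.0589), and Pim2, at 25.6 and 29.9 against 17.5 and 18.8 (-0.62, SE 0.12; edgeR adjusted p = 0.0811). The response of Pim2 differed between systems (edgeR adjusted p = 0.000791), upward in vitro and lower under the KO label in vivo. That of Bcl3, a STAT3 target, also differed (edgeR adjusted p = 0.00282), with an in vivo FPKM of 20.3 and 19.3 against 14.5 and 14.6. Its in vitro counts were low, at 45 and 30 (label WT) against 57 and 97 (label KO). By the same edgeR test the response also differed for Il2ra (adjusted p = 0.000851), Gata3 (0.000906), Ccnd2 (0.000965) and Bcl2 (0.00966). Myc (0.0103), Il18r1 (0.0128) and Furin (0.0178) passed as well. The other target genes in that test did not, where 16.4% of all genes passed. Over all lists, with each gene once and the 10 genes left out, 18 of 51 tested rose and 5 fell in vitro, where 20.1% of all genes rose and 17.7% fell. Among those that rose are Bcl3, Il18r1 and Osm, which reached the filter through the KO-labelled libraries. In vivo 1 of 62 rose and 1 fell, where 0.284% of all genes rose and 0.821% fell. The lists were chosen with earlier results of these data known, so these counts are no test of the pathway.

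The genes nearest in pattern were found by the Euclidean distance between profiles of log2(FPKM + 1) over the 8 libraries, each centred on its mean, among 9170 genes tested in both systems. Nearest to Il12rb1 were Smad3 (distance 0.417), Ctsw (0.584) and Egr3 (0.592). Smad3 stood at an FPKM of 9.42 and 10.6 (label WT) against 34.8 and 34.0 (label KO) in vitro, and at 40.2 to 47.8 in vivo. Nearest to Socs1 were Clstn1 (0.161), Msra (0.202) and Ttc7b (0.227). Cish had Tsc22d3 (0.583), Clcf1 (0.600) and Serpinb6b (0.652) nearest, and Socs3 had Abcg1 (0.904), Ly6g5b (0.997) and Il2rb (1.02). In vivo the FPKM of Abcg1 was 34.4 and 29.6 (label WT) against 28.8 and 26.0 (label KO), and that of Il2rb 541 and 502 against 447 and 481. Ly6g5b overlapped, at 37.3 and 31.3 against 38.4 and 31.1. None of these fell by as much as Socs3 did in vivo. Differences in level between the systems enter these distances and cannot be told apart from the provider.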

How the data were processed

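RNA was sequenced from 8 libraries, 2 in each of 4 groups, grouped by their titles. For each library the authors deposited counts (whole numbers) and FPKM values by gene, per the file headers. The submitters' processing notes list, with no roles, build mm10, DESeq2, RSEM, featureCounts, Subread, Bowtie2 and Trim Galore 0.4.4. The annotation and strand setting were not given in the sources used here. Listed genes had a mean count of 5 or more over their system, and a gene without a row may still have had reads.

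Counts were tested with the quasi-likelihood test of edgeR 4.0.16 (R 4.3.3, TMM), on each system's 4 libraries without a replicate term, two-sided, for genes with an FPKM of 1 or more in 2 or more libraries (9658 in vitro, 10227 in vivo). Genes passed at an adjusted p (Benjamini-Hochberg, over all genes tested) under 0.05. The difference between systems was an interaction contrast over 8 libraries. Each SE was obtained by dividing the size of the log2 fold change by the root of its F. Coordinates come from GENCODE M21 (mm10). Counts of replicates differed beyond sampling noise (chi-square per degree of freedom 11.1 to 22.8). The procedure was also run on simulated data, whose outcome is not reported here and on which no result rests. Genes named are the 10, up to 4 of each list by adjusted p in each system, and the 3 nearest in pattern to 5 of the 10 (those for Stat4, and some list members, are not reported here); other list members named (Ifngr2, Il21r and Myc) were chosen after their values were seen. The 10 genes and the lists were chosen with earlier results of these data known. Alternatives were other scalings, filters, pseudocounts, limma 3.58.1, DESeq2 1.42.0, the replicate number as a block, and each library left out, where a lone library is assumed to vary like the others.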

Additional observations from a re-analysis of the deposited data

Results flagged for a closer look

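With the expression filter, the response to the KO label differed between the systems for 1 of 7 genes tested, where 16.4% of all genes differed. Without it, the response differed for 3 of the 9 genes that both sets of tables list, where 13.5% of all genes did. For Il12rb1 the in vivo log2 fold change less that in vitro was -1.96 (edgeR adjusted p = 0.000783), with higher values in both KO-labelled libraries in vitro and overlapping groups in vivo. For Socs3 the difference was -3.18 (edgeR without the expression filter, adjusted p = 0.00498), higher in both KO-labelled libraries in vitro and lower in both in vivo. For Cish it was -1.998 (edgeR without the filter, adjusted p = 0.0284), higher in both KO-labelled libraries in vitro and overlapping in vivo. The in vitro side of the Socs3 and Cish differences rests on 7 and 11 counts in all under the WT label. Socs3 reached the mean count of 5 that listed genes had through the KO-labelled libraries. Groups of 2 libraries are too small for a test of outlying samples.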

How the results depend on the processing

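The calls of Il12rb1 in vitro and of its difference between systems were kept under every alternative run. Genes past the threshold in vivo, 113 here, numbered 505 by DESeq2. By limma they numbered 68 on log2(FPKM + 1), 75 on log2(FPKM + 0.1) and 45 on log2(TPM + 1). They numbered 52 at an FPKM of at least 5, 545 with all 8 libraries, and 7 to 279 without single libraries (WT replicate 2 gave 7, KO replicate 1 gave 21, WT replicate 1 gave 191 and KO replicate 2 gave 279). For the difference, 1534 here, they numbered 533 to 1816 without single libraries (in vitro WT replicate 1 gave 533, KO replicate 1 773 and KO replicate 2 851, and in vivo KO replicate 1 gave 832). Of the 10 genes, 2 of 7 tested passed in vitro, where 37.8% of all genes did. Without a filter 5 of 9 passed (Il12rb1, Stat5b, Stat5a, Cish and Socs3), where 34.0% of all genes did. With all 8 libraries 1 of 7 passed. In vivo 0 passed, against 2 with DESeq2, 1 with a robust fit and 1 with all 8 libraries. For the difference 1 of 7 tested passed, against 2 of 7 with DESeq2 and 3 of 9 without a filter.

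Same-numbered libraries deviated from their group means with a correlation of -0.31 in vitro and 0.46 in vivo, and with only 2 pairs the numbers are not shown to pair the samples. With the replicate block, 3159 of 9658 genes tested passed in vitro, 1078 of 10227 in vivo and 1796 of 9364 for the difference. Of the 10 genes, 7, 10 and 7 were tested in these fits, and 1, 2 and 2 passed. Stat5b in vitro lost its call (adjusted p = 0.0683), and Socs3 (0.000405) and Socs2 (0.00407) in vivo and the Stat5b difference (0.0336) passed. With crossed numbers as a block, chosen after seeing the data, 4997 of all 9658 genes tested passed in vitro. Of the 10 genes, 7 were tested in that fit and 4 passed.

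Signs turned only for values that had not passed. Socs1 in vitro was 0.023 with TPM, and Stat5a 0.14 when summed with Stat5b, which is another quantity. Without single libraries the log2 fold change of Socs1 ran from -0.091 to 0.015 in vitro and from -0.072 to 0.26 in vivo, and in vivo that of Il12rb1 from -0.014 to 0.40, Stat6 from -0.19 to 0.011, Cish from -0.034 to 0.53 and Stat4 from -0.11 to 0.15. The difference ran from -0.13 to 0.0067 for Stat3 and from -0.033 to 0.34 for Socs1. The causes were not tested. Ranking by TPM left every gene at its place in each group. Low counts limit Cish, Socs3 and Stat4 in vitro.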
